A study of Mus musculus with 6 samples.

Results

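The phosphatidylcholine turnover genes Gdpd3, Gdpd1, Gpcpd1, Gde1, Pctp, Pemt, Chka, Chpt1, Pcyt1a and Cept1 were followed in the liver of DUhTP and DUC mice. The 10 genes were chosen by name as a functional group at a time when the difference between these lines on these same arrays was already known, so their values are given as a description without p-values. Every probe set whose single symbol in the array annotation was one of these genes was taken, which gave 18 probe sets for 10 genes, out of 20380 probe sets for 12393 genes. DUhTP mice, also called marathon mice, are bred over many generations for treadmill performance and had no previous training, and DUC mice are the unselected control line. Labels of both lines describe a non-inbred stock made by crossing several outbred and inbred strains and bred so as to limit inbreeding. Liver RNA of males aged 70 days was measured on Affymetrix mouse genome arrays, 3 for each line. The labels give no treatment for either line. With 1 selected and 1 control line, an effect of the selection and any other difference between the lines cannot be told apart. The methods describe pools of mice while the sample labels describe 1 mouse for each array, so p-values measure the spread between arrays, whichever of these it is. In whole liver, fewer cells of a type and less RNA per cell cannot be told apart.

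Phosphatidylcholine is the main phospholipid of mammalian membranes, of bile and of the surface of lipoproteins. Hepatocytes build it from choline through the CDP-choline pathway, and they also make it by methylation of phosphatidylethanolamine, a route that is prominent in liver. Removal of its fatty acids leaves lysophosphatidylcholine and then glycerophosphocholine, and phosphodiesterases of the glycerophosphodiesterase family cleave such compounds, which returns choline or yields lysophosphatidic acid. Intensities are PLIER values, a linear signal in arbitrary units that the authors computed from the probes of each probe set, and a level can be compared between arrays for the same probe set but not between probe sets. Differences are given as log2 fold change (DUhTP minus DUC) with its standard error (SE), or as fold change (FC). A gene was called when at least 1 of its probe sets reached an adjusted p under 0.05 in limma's moderated test across 22626 probe sets, with Benjamini-Hochberg adjustment.

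Hepatocyte markers were bright on every array, with Alb at 13776 ± 415 for DUhTP against 14103 ± 317 for DUC arrays (SD, n = 3 each), and the bile duct marker Krt7 was dim, at 10.3 ± 3.39 and 10.2 ± 2.05. Median intensity was 53.1 on DUhTP replicate 2 and 56.3 to 57.0 on the other arrays. Correlation of log2 intensities was 0.959 to 0.967 among DUhTP arrays, 0.974 to 0.976 among DUC arrays and 0.950 to 0.963 between the lines. The lowest values between the lines, 0.950 to 0.952, were those of DUhTP replicate 2. Pancreas marker genes summed to a higher intensity on each DUC array than on any DUhTP array.

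Of the 10 genes, 3 were called: Gdpd3 was higher, and Gpcpd1 and Pctp were lower in DUhTP mice. Across the array 3.32% of genes were called, 1.92% as higher and 1.40% as lower, and 1.93% were called at an FC over 2, which these 3 members exceeded. Because the choice of these genes used this comparison, nothing is read from their share. Of the 18 member probe sets 5 read higher and 13 lower, where 51.9% of all probe sets read lower, and on 10 of them the arrays of the lines did not overlap, against 29.4% of all probe sets. An absolute log2 fold change over 1 was found on 5 member probe sets, against 6.08% of all probe sets. With 16 added to every intensity before the log, a setting that damps differences among dim probe sets, 6 members were called, with Chka added as higher and Chpt1 and Gde1 as lower, where 11.3% of all genes were called. Fewer members were called whichever array was left out, with fewer arrays for the test. Without DUhTP replicate 1, 2 or 3 there were 1, 2 and 2 called members. Without DUC replicate 1, 2 or 3 there were 2, 0 and 1. With 16 added, 3 to 5 members were called whichever array was left out.

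**Figure D1:**
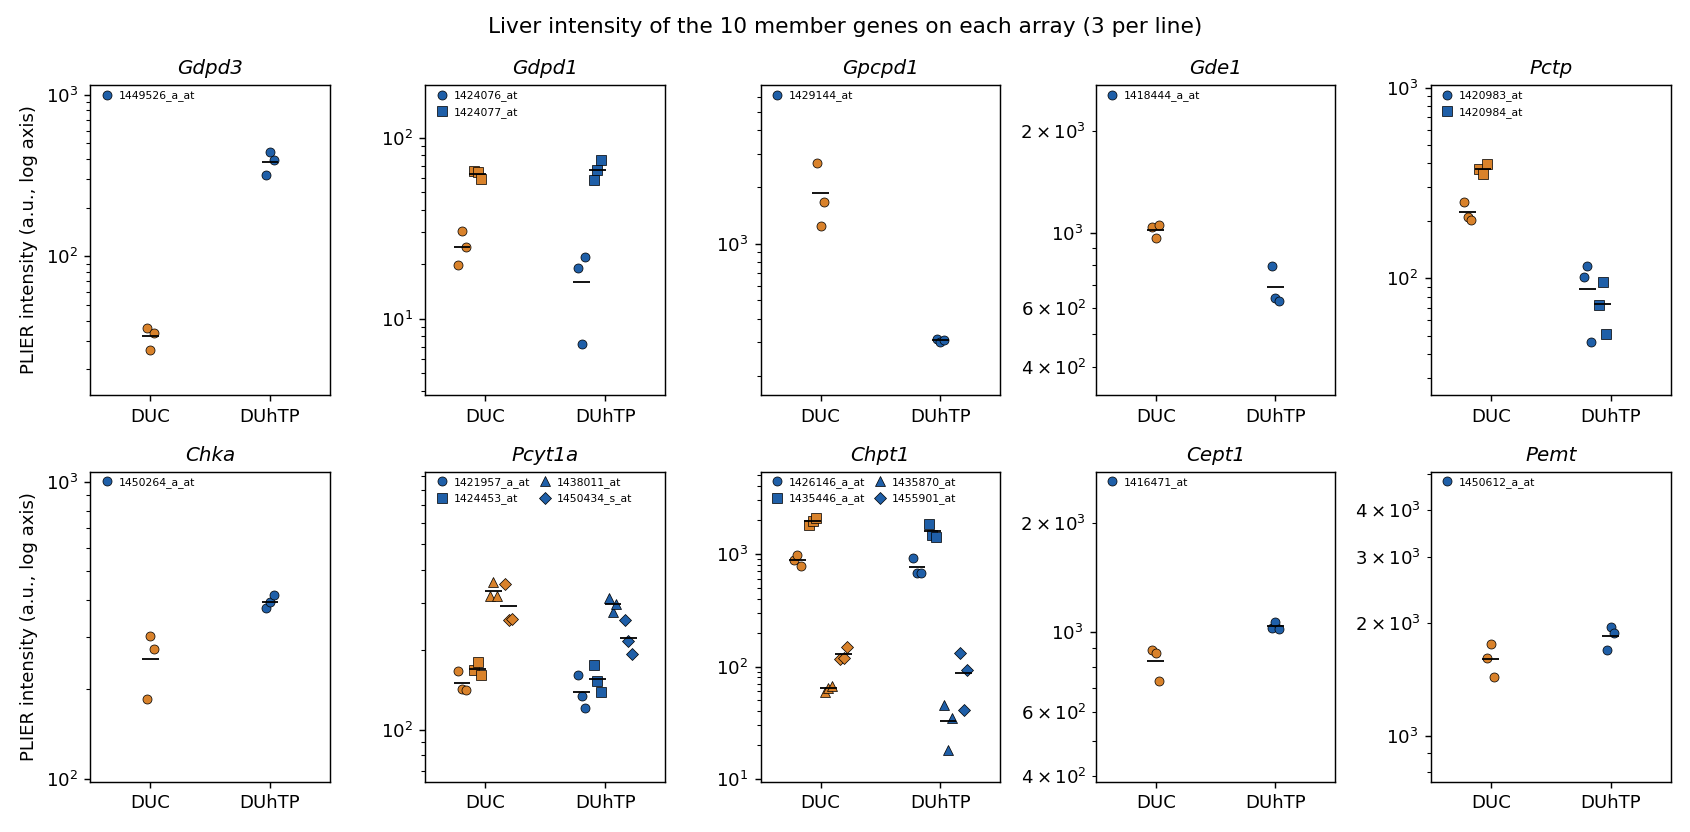
PLIER intensity (arbitrary units, log axis) of the 10 genes on each of the 6 liver arrays, with DUC arrays in orange and DUhTP arrays in blue, a marker shape for each probe set and a black line at each mean. Gdpd3 lies between 317 and 443 on the DUhTP arrays and between 26.3 and 35.8 on the DUC arrays, whereas Gpcpd1 and Pctp lie lower on every DUhTP array.

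Among the glycerophosphodiesterases, Gdpd3 showed the largest difference of the 18 probe sets. Gdpd3, also named GDE7, is a lysophospholipase D-type enzyme that releases lysophosphatidic acid from lysophospholipids. On probe set 1449526_a_at its intensity was 317, 443 and 396 on DUhTP arrays and 35.8, 26.3 and 33.5 on DUC arrays. The lowest DUhTP array thus stood far above the highest DUC array. Mean intensity was 385 ± 63.8 against 31.9 ± 4.94 (SD, n = 3 per line), which is a log2 fold change of 3.59 (SE 0.19), or a FC of 12.1. The size depended on the scale, and with 16 added the FC was 8.34. This was the only Gdpd3 probe set, and its DUC values lay under the median intensity of the DUC arrays (56.3 to 57.0). No member was among the transcripts that the paper checked by real-time PCR.

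Gpcpd1, also named GDE5, hydrolyses glycerophosphocholine to choline and glycerol-3-phosphate, and it was lower in DUhTP mice. Its intensity on probe set 1429144_at was 313, 300.0 and 310.0 on DUhTP arrays and 2671, 1248 and 1655 on DUC arrays. The DUhTP arrays were nearly equal, with a highest over lowest ratio of 1.04, while the DUC arrays spread over a ratio of 2.14. Mean intensity was 308 ± 6.98 against 1858 ± 733 (SD, n = 3 per line), which gave a log2 fold change of -2.52 (SE 0.28) and a FC of 5.74 towards DUC. With 16 added the log2 fold change was -2.46.

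Gdpd1, also named GDE4, is a close relative of Gdpd3 with a like enzyme activity, and it was not called on either of its probe sets. On probe set 1424077_at the intensity was 58.1, 66.1 and 75.1 on DUhTP arrays and 65.3, 64.7 and 58.7 on DUC arrays, with a log2 fold change of 0.07 (SE 0.14, 95% interval -0.26 to 0.41). A dimmer probe set, 1424076_at, read 19.0, 7.21 and 21.8 against 19.8, 30.5 and 24.8, with a log2 fold change of -0.77 (SE 0.45). The lines overlapped on both. Gde1, a membrane phosphodiesterase that acts on glycerophosphoinositol and on glycerophospho-N-acylethanolamines, read 795, 642 and 629 on DUhTP arrays and 1039, 964 and 1051 on DUC arrays. All DUhTP values were under all DUC values, with a log2 fold change of -0.57 (SE 0.13), and Gde1 was called with 16 added. Of the other family members on the array, the log2 fold change of Gdpd5 was 0.41 (SE 0.17, adjusted p = 0.229) and that of Gdpd2 was -0.37 at dim intensities (4.46 ± 0.713 against 6.18 ± 3.20, SD, n = 3 per line, limma adjusted p = 0.610).

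Pctp, the phosphatidylcholine transfer protein, carries phosphatidylcholine between membranes and was lower in DUhTP mice on both of its probe sets. Probe set 1420984_at read 72.4, 95.7 and 51.1 on DUhTP arrays and 372, 354 and 397 on DUC arrays. Every DUhTP value was below every DUC value, and the DUC arrays differed from each other by a ratio of 1.12 at most. Mean intensity was 73.0 ± 22.3 against 374 ± 21.9 (SD, n = 3 per line), which is a log2 fold change of -2.40 (SE 0.24) and a FC of 5.29 towards DUC. The other probe set, 1420983_at, read 101, 116 and 46.4 against 251, 209.8 and 203, with a log2 fold change of -1.43 (SE 0.36), and was called with 16 added. The sizes thus differed between the probe sets, at FCs of 5.29 and 2.70, while the direction was shared. Acot13, the acyl-CoA thioesterase that binds Pctp, had a log2 fold change of 0.20.

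Promoter windows are shown for the called members Gdpd3 and Pctp, which moved in opposite directions, and for Pcyt1a, the member whose window held a sterol regulatory element. Windows cover 250 bases before the RefSeq start of a transcript, read 5′ to 3′ on the strand of the gene in build GRCm38.p6, and 9 of the 10 members had at least 1 window. Capitals mark matches, on either strand, to the E-box CACGTG, the sterol regulatory element TCACNCCAC, the GC box GGGCGG, the TATA box TATAAA or the CCAAT box. A match is a run of letters and not a proven binding site.
Gdpd3 (chr7:126766164-126766413, plus strand): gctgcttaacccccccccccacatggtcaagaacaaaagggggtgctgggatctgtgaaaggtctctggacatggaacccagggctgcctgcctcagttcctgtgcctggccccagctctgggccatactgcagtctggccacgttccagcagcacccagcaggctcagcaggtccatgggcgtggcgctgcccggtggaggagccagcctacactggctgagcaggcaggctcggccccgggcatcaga
Pctp (chr11:90002895-90003144, minus strand): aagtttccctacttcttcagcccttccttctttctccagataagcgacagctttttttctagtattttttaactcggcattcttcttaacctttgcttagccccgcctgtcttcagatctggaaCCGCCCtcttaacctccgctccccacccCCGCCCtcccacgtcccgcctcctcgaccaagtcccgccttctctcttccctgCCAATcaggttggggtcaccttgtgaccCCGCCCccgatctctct
Pcyt1a (chr16:32430671-32430920, plus strand): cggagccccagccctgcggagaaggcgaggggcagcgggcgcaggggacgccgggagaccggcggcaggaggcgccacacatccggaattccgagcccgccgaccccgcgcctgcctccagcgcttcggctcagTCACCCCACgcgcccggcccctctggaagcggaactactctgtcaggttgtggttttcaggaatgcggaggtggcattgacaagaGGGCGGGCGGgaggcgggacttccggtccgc
The Gdpd3 window held no match to any of these motifs. The Pctp window held 3 GC boxes, all written on the opposite strand as CCGCCC, and 1 CCAAT box. In the Pcyt1a window the sterol regulatory element began 116 bases before the start, and 2 GC boxes that share letters began 31 and 27 bases before it. Across all 32851 mouse windows, 1.05% held the sterol regulatory element, 6.02% the E-box, 32.7% the GC box, 12.4% the TATA box and 33.8% the CCAAT box. Of the 14 windows of the members, 2 held the sterol regulatory element, both of Pcyt1a and overlapping, 8 held the GC box, 5 held the CCAAT box, and 0 held the E-box or the TATA box. Gdpd3 lies on chromosome 7 at 126766414 to 126775645, Pctp on chromosome 11 at 89982544 to 90002894, Pcyt1a on chromosome 16 at 32430921 to 32475065 and Gpcpd1 on chromosome 2 at 132529082 to 132578248.

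Among the 4 members of the CDP-choline pathway, 0 were called by limma without an added constant, and 2, Chka and Chpt1, were called with 16 added. Chka, choline kinase alpha, which phosphorylates choline in the first step, read 375, 394 and 416 on DUhTP arrays and 186, 302 and 274 on DUC arrays. The lines did not overlap, and the log2 fold change was 0.67 (SE 0.20), or 1.59 as FC. Its paralog Chkb pointed the other way, with a log2 fold change of -0.33 (SE 0.11).

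Pcyt1a encodes the cytidylyl transferase that sets the rate of the pathway, and its 4 probe sets gave log2 fold changes of -0.12, -0.13, -0.17 and -0.39, with SEs of 0.11 to 0.19. The probe set with the highest mean, 1438011_at, read 314, 278 and 297 on DUhTP arrays and 319.8, 360.1 and 319.5 on DUC arrays, so that the lines were separate by a narrow gap, with a 95% interval of -0.45 to 0.11. On 1421957_a_at and 1424453_at the lines overlapped. On the fourth, 1450434_s_at, the DUhTP arrays read 258, 216 and 192 and the DUC arrays 355, 258 and 261. Pcyt1a was not called with 16 added either.

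The last step, transfer of phosphocholine to diacylglycerol, is carried out by Chpt1 and by Cept1, which also makes phosphatidylethanolamine. Chpt1 read lower in DUhTP mice on 4 of 4 probe sets, with log2 fold changes of -0.23, -0.31, -0.69 and -1.06. On its brightest probe set, 1435446_a_at, the intensity was 1842, 1488 and 1430 on DUhTP arrays and 1819.7, 1968 and 2074 on DUC arrays, so DUhTP replicate 1 lay within the range of the controls. Its dimmest, 1435870_at, read 45.8, 18.0 and 34.8 against 59.8, 64.0 and 67.5, and was called with 16 added. Without DUhTP replicate 2 the log2 fold changes of 1435870_at and 1455901_at were -0.67 and -0.21. Pancreas markers and the median intensity were lowest on that array too, and the part of either in these values was not tested. Cept1 read 1026, 1064 and 1016 on DUhTP arrays and 890.3, 877 and 734 on DUC arrays. The lines of Cept1 did not overlap, but the log2 fold change was small, 0.32 (SE 0.12), and it was not called.

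Pemt, which methylates phosphatidylethanolamine to phosphatidylcholine, read 1695, 1947 and 1876 on DUhTP arrays and 1616, 1753 and 1432 on DUC arrays. The lines overlapped, and the log2 fold change was 0.20 (SE 0.13, 95% interval -0.11 to 0.52). Pemt was not called with 16 added either.

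**Figure D2:**
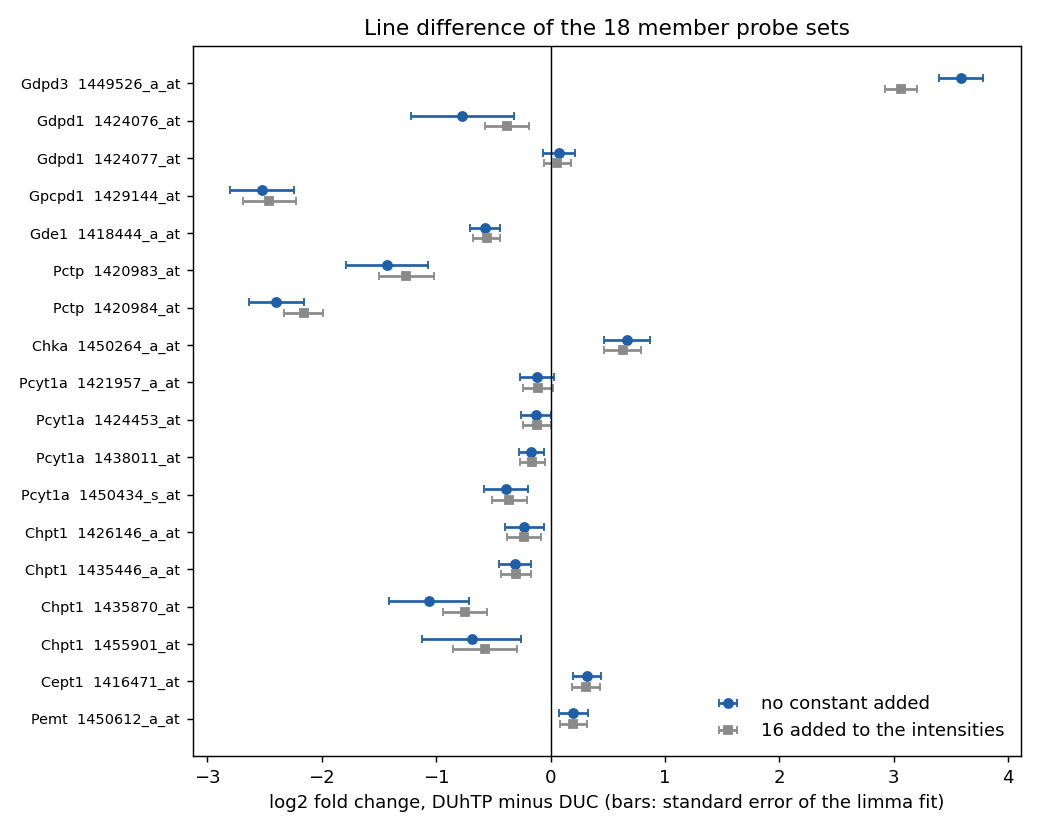
Log2 fold change (DUhTP minus DUC) of the 18 member probe sets without an added constant (blue circles) and with 16 added (grey squares), with bars of 1 standard error of the limma fit, 3 arrays per line. Gdpd3 at 3.59 and Gpcpd1 and Pctp at -2.52 and -2.40 stand apart from the other members, and adding 16 moves the dim probe sets towards 0.

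Beyond the members, 85 genes of phosphatidylcholine and phospholipid metabolism in 9 lists were examined, of which 69 had a probe set with 1 symbol. Of these 69 genes, 1 was called higher and 2 lower, beside 3.32% of all genes called. With 16 added, 4 were called higher and 9 lower, beside 11.3% of all genes called. The median log2 fold change of the brightest probe sets of the 69 genes was -0.04, beside 0.001 over all genes.

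Called genes of these lists concerned diacylglycerol supply, the methyl donor and a phospholipase. Lpin2, a phosphatidate phosphatase that supplies diacylglycerol to the last step of the pathway, read 118, 177 and 123 on DUhTP arrays and 406, 421 and 322 on DUC arrays on probe set 1460290_at, where it was lower (log2 fold change -1.47, SE 0.20, limma adjusted p = 0.0320). Its other probe sets, 1452836_at and 1452837_at, gave -1.17 and -1.15 (limma adjusted p = 0.0610 and 0.0705). Lpin1, the related phosphatase, differed more but with more spread. It read 95.3, 455 and 316 on DUhTP arrays and 1619, 2357 and 2243 on DUC arrays on 1418288_at, with a log2 fold change of -3.10 (SE 0.59, limma adjusted p = 0.0599), and it passed with 16 added (0.00280). All 3 DUhTP arrays lay under the DUC arrays on both Lpin1 probe sets. The Lpin2 call held without DUhTP replicate 2 (adjusted p = 0.0424) and was lost without any other array (0.0922 to 0.132), and with 16 added it held without each array in turn (0.000358 to 0.00935).

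Mat1a, the liver enzyme that makes S-adenosylmethionine, the methyl donor of Pemt, was lower in DUhTP mice. Its intensity was 6085 ± 308 against 10052 ± 199.6 (SD, n = 3 per line), which is a log2 fold change of -0.73 (SE 0.10, limma adjusted p = 0.0321), and the adjusted p was 0.0778 to 0.137 without any 1 array, or 0.00769 to 0.0221 with 16 added. Bhmt and Gnmt, which act in the same methyl cycle, had log2 fold changes of -0.16 and 0.04 (adjusted p = 0.400 and 0.860). Chdh, which oxidizes choline on its way to betaine, had one of 0.47 (adjusted p = 0.100) and passed with 16 added (0.0341).

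Pla1a, a phospholipase that acts on phosphatidylserine, was higher in DUhTP mice on all arrays, at 558, 549 and 561 against 322, 275 and 275, with a log2 fold change of 0.94 (SE 0.11, limma adjusted p = 0.0240), and the adjusted p was 0.0648 to 0.117 without any 1 array, or 0.00285 to 0.0117 with 16 added. Of 18 measured phospholipases and lysophospholipases Pla1a was the 1 called by limma, and 11 had at least 1 probe set at an unadjusted p under 0.05. The share of all genes at that unadjusted p was not computed in this fit, so nothing is read from this or later counts of that kind. With 16 added, 2 of these phospholipases and lysophospholipases were called higher and 3 lower. Among the lower ones was Pla2g1b, the pancreatic phospholipase, whose probe set 1437015_x_at read 27.3, 9.59 and 14.5 on DUhTP arrays and 36.8, 51.6 and 51.2 on DUC arrays, lowest on DUhTP replicate 2 as the pancreas markers were. Lcat, which esterifies cholesterol with a fatty acid from phosphatidylcholine in plasma, and Lypla1 had log2 fold changes of 0.09 and -0.21 (adjusted p = 0.759 and 0.568).

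Transfer and export genes gave 0 calls of 12 without a constant, by limma at an adjusted p under 0.05, 3 at an unadjusted p under 0.05 and 2 with 16 added. Stard4, a sterol carrier of the family of Pctp, read 357, 283 and 458 against 179, 179 and 179 on 1429240_at (log2 fold change 1.0, adjusted p = 0.0607, and 0.00690 with 16 added). Abcb4, which moves phosphatidylcholine into bile, read 1379 ± 92.7 against 1920.3 ± 106 (SD, n = 3 per line; log2 difference -0.48, limma adjusted p = 0.0909, and 0.0290 with 16 added). For Stard10, another phosphatidylcholine carrier, the log2 fold change was 0.00 (adjusted p = 0.995).

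The remaining lists held 0 called genes without a constant: 6 genes of choline and ethanolamine uptake (median log2 fold change 0.25), 2 of the phosphatidylserine route (-0.10), 7 lysophospholipid acyltransferases (-0.03), 7 genes of sphingomyelin turnover (0.05) and the 2 other glycerophosphodiesterases (0.02). At an unadjusted p under 0.05 limma gave 1, 0, 1, 3 and 1 genes of these lists, and with 16 added 0, 0, 1, 1 and 0 were called. Among them, Lpcat3, the acyltransferase that places polyunsaturated chains in phosphatidylcholine, differed by -0.04 on the log2 scale (adjusted p = 0.876), Lpgat1 by -0.18 on its brightest probe set (0.393), Slc44a1, a choline transporter, by 0.09 (0.752) and Slc44a2 by 0.40 (0.323). The other Lpgat1 probe sets read -0.31, -0.36 and -0.75, and the last of these, 1435327_at, was called with 16 added (adjusted p = 0.0353). Ptdss1 and Ptdss2, the phosphatidylserine synthases, had 0.22 and -0.42 (0.357 and 0.261). Smpd1 and Smpdl3a had 0.16 and -0.42 (0.501 and 0.0980), and Pcyt2, which serves phosphatidylethanolamine, -0.29 (0.302).

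**Figure D3:**
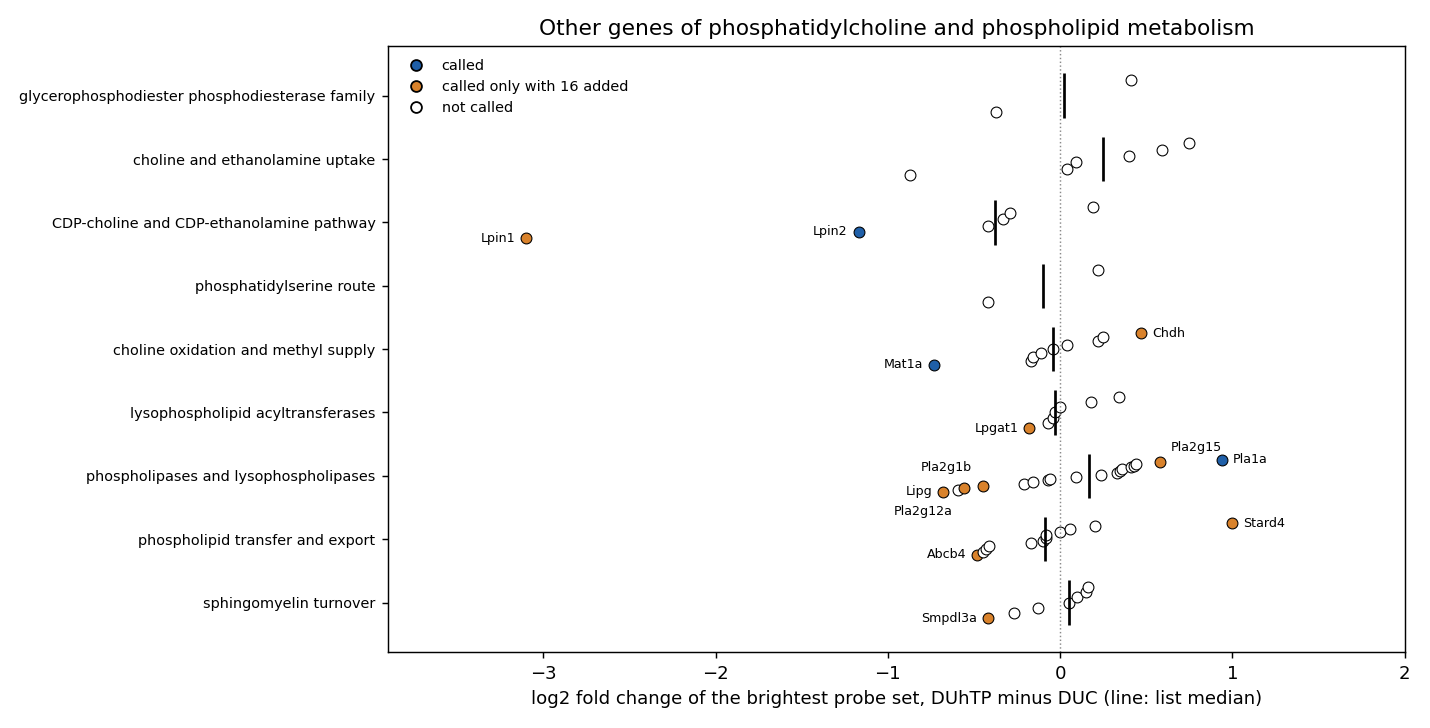
Log2 fold change (DUhTP minus DUC) of the brightest probe set of 69 genes in 9 lists, with a black line at each list median. Colour marks whether any probe set of the gene was called without a constant (blue, 3 genes), with 16 added (orange) or not at all (white), so the plotted probe set is not always the called one.

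Markers of other tissue and cell types were read on the same arrays. A sum of marker intensities is weighted towards its brightest probe sets, and it was compared only between arrays. Summed intensity of 8 exocrine pancreas genes was 4064, 996 and 2579 on DUhTP arrays and 4615, 8952 and 6774 on DUC arrays, so the lines did not overlap, and DUhTP replicate 2 was lowest. Median log2 fold change of these genes was -2.42, and 0 of 8 were called by limma without a constant, 5 at an unadjusted p under 0.05 and 4 with 16 added. Highest over lowest among the DUhTP arrays was 4.08 for this sum, 1.40 for Gdpd3 and 1.04 for Gpcpd1. For Pctp it was 1.87 on 1420984_at and 2.51 on 1420983_at. The part of the pancreas signal in these members was not tested. Chpt1 on 1435870_at and 1455901_at and Gdpd1 on 1424076_at were lowest on DUhTP replicate 2, where the pancreas sum was lowest as well. That array also had the lowest median intensity, 53.1, and the part of either in these values was not tested. On the brighter probe sets 1435446_a_at and 1426146_a_at Chpt1 was lowest on DUhTP replicate 3. On 1455901_at Chpt1 read 131, 40.7 and 92.5 on DUhTP arrays and 116, 119 and 149 on DUC arrays.

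Kupffer cell and leukocyte markers summed to 3083, 3932 and 3625 on DUhTP arrays and 3022, 2225 and 2571 on DUC arrays, and 1 of 8 was called, Clec4f, a Kupffer cell lectin (645 ± 70.4 against 297 ± 44.7, SD, n = 3 per line, log2 difference 1.13, limma adjusted p = 0.0320). Of the 8, 5 read higher and 3 lower on their brightest probe sets, the latter being Marco, Ptprc and Cd5l (-0.60, -0.12 and -0.01), and with 16 added 4 were called higher and 1, Marco, lower. Like the Kupffer sum, Gdpd3 was highest on DUhTP replicate 2 and lowest on DUC replicate 2, with the same order of arrays within each line, and the part of these cells in Gdpd3 was not tested. Hepatocyte markers summed to 69433 to 70984 on DUhTP and 76018 to 78779 on DUC arrays, with 1 of 7 called (Tat, log2 fold change -0.88, adjusted p = 0.0370). On their brightest probe sets 2 hepatocyte markers read higher and 5 lower (median -0.19), and with 16 added Tat and Hnf4a were called lower. Erythroid markers summed to 1283 to 1657 against 761 to 846, with 1 of 3 called (Alas2, 0.88, adjusted p = 0.0499). Alas2 made up most of this sum, at 1316 ± 209.9 against 709 ± 56.7 (SD, n = 3 each), and the brightest probe sets of Hba-a1 and Slc4a1 had log2 differences of -0.08 and 0.19 with overlap between the lines. Of 9 endothelial and stellate cell markers (summed to 2832 to 3252 against 2782 to 3079) and 4 bile duct markers (108 to 147 against 125 to 134) 0 were called by limma without a constant. At an unadjusted p under 0.05 there were 1 and 0, and with 16 added 1 and 0.

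**Figure D4:**
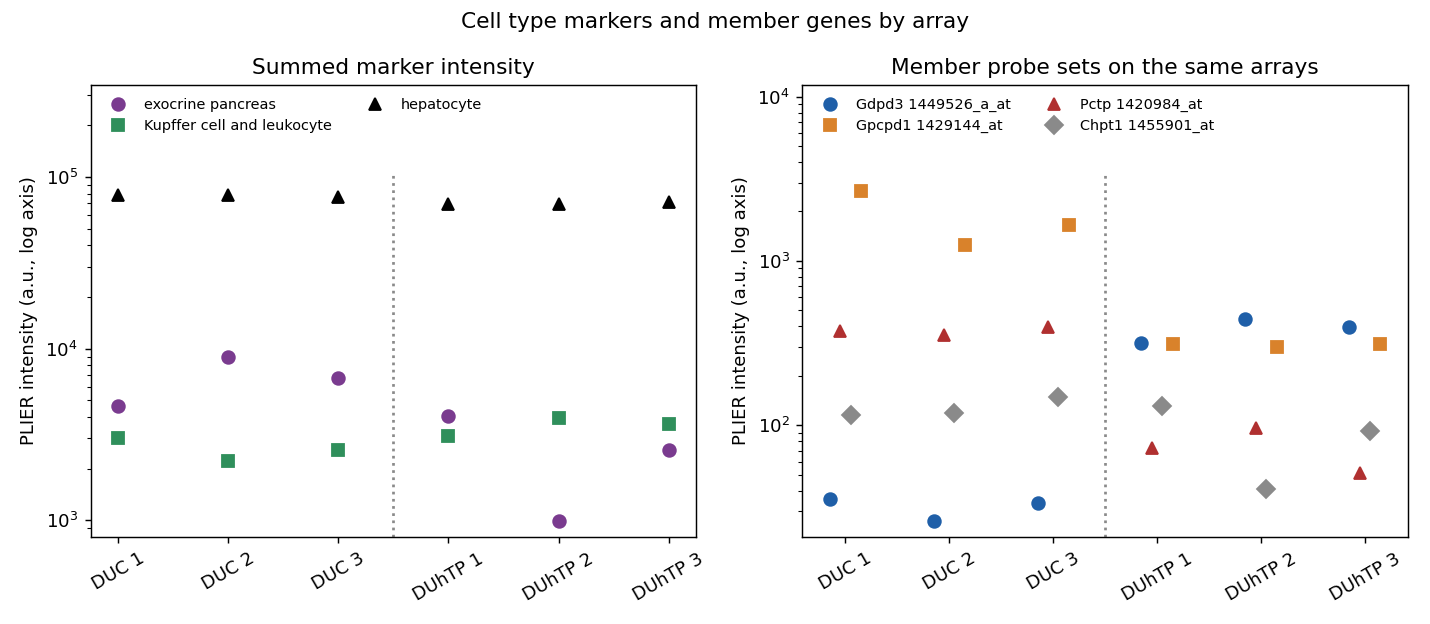
Summed PLIER intensity (arbitrary units, log axis) of the exocrine pancreas, Kupffer cell and leukocyte, and hepatocyte marker lists (left) and intensity of 4 member probe sets (right) on the same 6 arrays. The pancreas sum falls to 996 on DUhTP replicate 2, where Chpt1 on 1455901_at is also lowest. Of the Chpt1 probe sets this one was shown because its DUhTP arrays had the largest highest over lowest ratio, 3.21. The brighter Chpt1 probe sets, 1435446_a_at and 1426146_a_at, were lowest on DUhTP replicate 3. Gpcpd1 stays between 300.0 and 313 on the DUhTP arrays.

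Lines of mice can differ over whole chromosome segments, so the 2 measured genes nearest on either side of each member, 40 in all, were read as well. Of these, 1 was called higher and 1 lower, beside 1.92% and 1.40% of all genes, and neither lay beside a called member. Beside Gdpd3, whose nearest measured neighbour Ypel3 lay 1.32 kb away, Ypel3, Tbx6, Coro1a and Bola2 had log2 fold changes of -0.08, 0.17, 0.25 and -0.33. Around Gpcpd1, Pcna, Cds2, Chgb and Bmp2, at distances of 203 to 974 kb, had 0.01, 0.09, 0.52 and -0.29. Around Pctp, Dgke, Nog, Tmem100 and Mmd, at 27.5 to 922 kb, had 0.12, 0.71, -0.52 and 0.05. None of these 12 genes was called, but most lay far from Gpcpd1 and Pctp, and Chgb and Tmem100 were dim (6.32 and 7.26 on average in DUhTP mice), so they say little about the segment around these members.

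Called neighbours were Srebf1 and 1810055G02Rik. Srebf1, which encodes the transcription factor SREBP-1 and lies 153 kb from Pemt on chromosome 11, read 662, 450.1 and 464 on DUhTP arrays and 158, 164 and 202 on DUC arrays (log2 fold change 1.57, SE 0.20, limma adjusted p = 0.0263). 1810055G02Rik lies 134 kb from Chka on chromosome 19 and read 149.7, 156 and 95.8 against 341, 386 and 407 (log2 fold change -1.53, SE 0.22, limma adjusted p = 0.0329). Both calls were lost without any 1 array, at an adjusted p of 0.0576 to 0.118 and of 0.0549 to 0.138, and both held with 16 added whichever array was left out (0.000860 to 0.00638 and 0.00110 to 0.0110). With 16 added 6 of the 40 neighbours were called, where 11.3% of all genes were called.

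**Figure D5:**
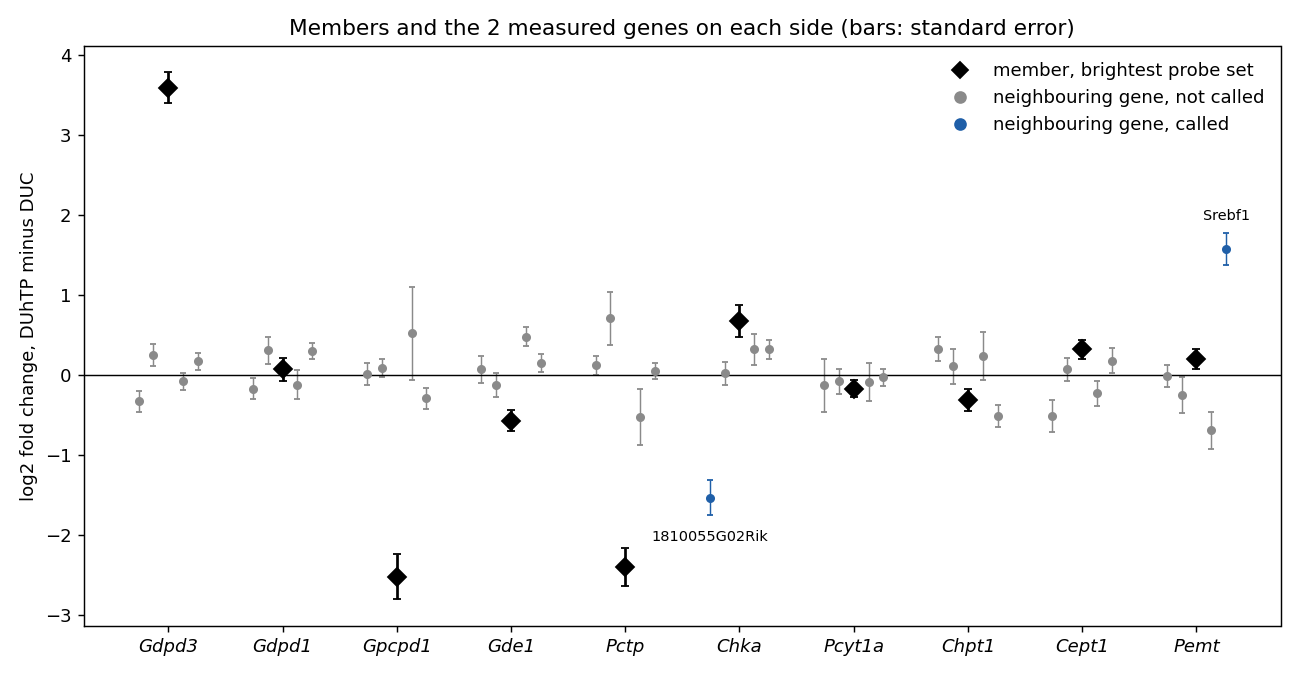
Log2 fold change (DUhTP minus DUC) of the brightest probe set of each member (black diamonds) and of the 2 measured genes on each side of it in chromosome order (circles, blue where the gene was called), with bars of 1 standard error, 3 arrays per line. The neighbours of Gdpd3, Gpcpd1 and Pctp lie between -0.52 and 0.71, and the called neighbours Srebf1 and 1810055G02Rik lie beside Pemt and Chka.

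Patterns most like those of Gdpd3 and Gpcpd1 were looked for by Pearson correlation of log2 intensity over the 6 arrays, among 10345 other probe sets with 1 symbol and a mean in the upper part of the range. Sptlc2, a subunit of the enzyme that starts sphingolipid synthesis, Limd2 and Il18, an inflammatory cytokine, were most like Gdpd3 (r = 0.9969, 0.9968 and 0.9968). Hc, which encodes complement component C5, Apoa5, an apolipoprotein of triglyceride metabolism, and Rbm17 were most like Gpcpd1 (r = 0.9967, 0.9943 and 0.9939). The points share 6 arrays that fall into the lines, so any gene that differs between them scores high, and these values describe the arrays. Sizes of the difference were unlike, since Sptlc2 had a log2 fold change of 0.45 and Apoa5 one of -0.28.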

How the data were processed

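Liver RNA was measured on 6 Affymetrix mouse genome arrays, 3 for DUhTP and 3 for DUC mice. Scaling by the authors was global, in GCOS 1.1.1, and probe sets were then summarized with PLIER in Array Assist, so the deposited values are linear intensities in arbitrary units. A PLIER version or an added constant is not given in the sources used here. The number of arrays limits the precision, and 3 against 3 cannot give an exact permutation p below 0.1.

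The table held 22690 probe sets, and the 64 controls were left out. Of the 22626 tested, 20380 had 1 symbol in the array annotation, 691 several and 1555 none, and only those with 1 symbol were assigned to a gene. Groups came from the sample labels. Intensities were logged to base 2 without a constant and compared with lmFit and eBayes of limma 3.58.1 under R 4.3.3, with Benjamini-Hochberg adjustment over all tested probe sets. The procedure was tested on simulated data.

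The members and lists were chosen with earlier results of these data known. Named were every member, called list genes and up to 2 bright uncalled genes per list, the 2 neighbours on each side of called members, the 3 most similar genes to 1 called member in each direction, and called markers. Chkb, Acot13, Chdh, Stard4, Pla2g1b, the called neighbours and the uncalled markers were added after their values were seen. Alternatives were 16 added, quantile normalization, no dimmest 33.3% of probe sets, limma-trend, a replicate block, no _x_at, _s_at or _a_at probe sets, an FC over 2, the brightest probe set per gene, and each array left out. Leaving out an array with 16 added was chosen after seeing the data.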

Additional observations from a re-analysis of the deposited data

How the results depend on the processing

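Without a constant, fewer probe sets were called whichever array was left out, which also leaves fewer arrays for the test. Called probe sets numbered 546, and 1 to 122 without any 1 array, with 1 without DUC replicate 2. The count was 1951 with 16 added, 1854 without the dimmest 33.3% of probe sets, 2350 with limma-trend, 277 without _x_at, _s_at and _a_at probe sets and 327 at an FC over 2. With 16 added and 1 array left out it was 771 to 1591, with 1591, 1570 and 1530 without DUhTP replicate 1, 2 or 3, 961 without DUC replicate 1 and as few as 771 without DUC replicate 2. Called members numbered 3, and 6 with 16 added or with limma-trend. Leaving out 1 array gave 0 to 2 members: Gdpd3 lost its call without DUC replicate 2, Gpcpd1 lost its call without any 1 array other than DUC replicate 1, and Pctp lost it without DUhTP replicate 1 and without each DUC array. With 16 added, 3 to 5 members were called without any 1 array, Gdpd3, Gpcpd1 and Pctp among them each time. Leaving out the _a_at probe sets removed the single Gdpd3 probe set from the test. Over the arrays left out, the log2 fold change ran from 3.46 to 3.73 for Gdpd3, from -2.77 to -2.22 for Gpcpd1 and from -2.62 to -2.17 for Pctp on 1420984_at. Of the member probe sets 1 changed sign, 1424077_at of Gdpd1, from 0.07 to as low as -0.02. Called pathway genes numbered 3, 13 with 16 added or without the dimmest probe sets, 15 with limma-trend, 1 at an FC over 2 and 0 to 1 without any 1 array. Without any 1 array Pla1a and Mat1a lost their calls, and Lpin2 lost it without any array other than DUhTP replicate 2, while with 16 added 5 to 10 pathway genes were called without any 1 array, Pla1a, Mat1a and Lpin2 among them each time. Called neighbours numbered 2, 6 with 16 added, without the dimmest probe sets or with limma-trend, 0 without any 1 array and 0 without _x_at, _s_at and _a_at probe sets, a setting that leaves out the single probe sets of Srebf1 and 1810055G02Rik. Deviations of same-numbered arrays correlated by 0.00341 to 0.0667, and those of other pairs by -0.0335 to 0.0281. Deviations from a line mean sum to 0 over its 3 arrays, so these values cannot tell whether replicate numbers pair the arrays. With the replicate number as a block, 0 probe sets, 0 members, 0 pathway genes and 0 neighbours were called by limma. In that fit limma gave 4124 of 22626 probe sets at an unadjusted p under 0.05. Of the pathway genes, 22 of 69 had at least 1 such probe set, as did 11 of 40 neighbours. A gene with several probe sets can be counted through any of them, so these gene counts cannot be set against the share of probe sets. For the remaining losses the cause was not tested.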
